A study of Mus musculus with 6 samples.

Results

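Chemokine receptors are G protein-coupled receptors on the surface of leukocytes that sense gradients of small secreted proteins, the chemokines, and direct the cells towards them. In mouse monocytes, CCR2 is required for classical Ly6C high monocytes to leave the bone marrow in response to CCL2 and CCL7, whereas CX3CR1, the receptor of fractalkine (CX3CL1), is most abundant on patrolling Ly6C low monocytes and supports their survival. CXCR4 binds CXCL12 and retains cells in bone marrow and spleen. The spleen holds a reservoir of both monocyte subsets.

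The mRNA of 9 receptors, Ccr2, Cx3cr1, Ccr1, Ccr7, Ccr9, Ccrl2, Cxcr3, Cxcr4 and Cmklr1, was followed in splenic monocytes. They were chosen by gene symbol, and all 9 were found once each among the 46072 gene identifiers of the deposited tables. A further 16 receptors of the family served as the comparison. All animals were young adult female C57BL/6 mice without any genetic change, of which 3 were gavaged with water (Con) and 3 with vancomycin (Van). Van mice received 2 mg of vancomycin per day as gavages of 1 mg. Gavage lasted 6 days, and a rest period free of antibiotics followed in both groups, which the sample records put at 6 to 8 days and the paper, for the sequenced mice, at 8 days. The question of the comparison was which genes changed in monocytes after vancomycin. Monocytes were obtained with magnetic beads that remove cells bearing CD3e, CD45R, CD117, Ly-6G, NK1.1 or Siglec F, and RNA was taken without stimulation in culture. For the study's cultures, spleens of mice from the same group were combined, and whether this was also done for the RNA is not given in the sources used here.

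Each group had 3 libraries of polyadenylated RNA, and the total estimated count was between 43.4M and 61.8M. Levels are given as CPM, the count scaled to the library's total, or, where genes are compared with each other, as FPKM, which also divides by transcript length. Libraries of a group differed by more than counting noise, so none was a copy of another. Markers of monocytes were abundant in both groups. Lyz2 (lysozyme) had a mean of 8013 FPKM in Con and 7514 in Van, and Ctss (cathepsin S) 1083 and 1099. All 8 monocyte, 8 Ly6C high and 10 Ly6C low markers passed the filter on low counts.

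Of the 9 receptors, Ccr2 was lower in Van, by 43.8% in mean CPM, and the other 8 did not pass the test. Cx3cr1 had a log2 fold change of -0.17. Cxcr4, the most abundant receptor in both groups, had a log2 fold change of -0.03. All 9 passed the filter. The log2 fold change was negative for 7 and positive for 2, with a median of -0.15, against -0.00 over the 16138 genes tested. In edgeR's quasi-likelihood fit, 1 of the 9 had a Benjamini-Hochberg adjusted p of 0.05 or less, which 2.00% of all genes tested had. An unadjusted p under 0.05 was reached by 2 of the 9 (Ccr2 and Ccr9), against 16.5% of all genes. The CPM of the groups did not overlap for 3 of the 9 (Ccr2, Cx3cr1 and Ccr9), against 22.5% of all genes.

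**Figure D1:**
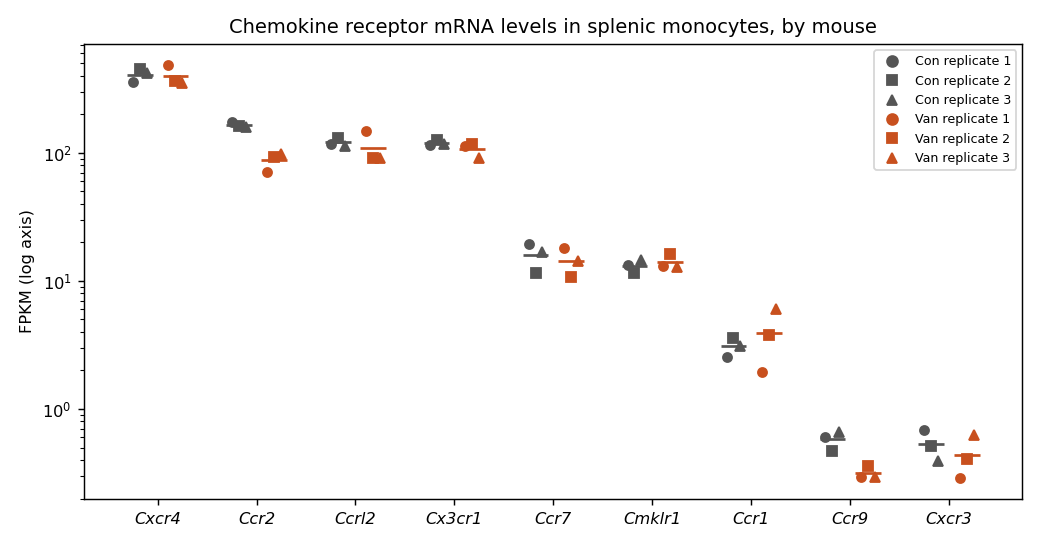
FPKM on a log axis of the 9 receptors in each mouse, with Con in grey and Van in orange, symbols for the replicates and short lines for group means. For Ccr2 the Van mice (70.4 to 98.2) lie below the Con mice (159 to 173), whereas for Cxcr4, the most abundant receptor, the groups overlap.

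Measured per transcript length, the receptors fell into levels far apart. In Con, Cxcr4 came first with 409 ± 48.1 FPKM (SD, n = 3), at the 99.4th percentile of genes with a value above 0. Ccr2 followed with 165 ± 7.56 FPKM, and then Ccrl2 with 121 ± 8.15 and Cx3cr1 with 120 ± 4.49, whose ranges overlapped. Ccr7 (15.9 ± 3.96) and Cmklr1 (13.1 ± 1.48) also overlapped, Ccr1 stood alone at 3.08 ± 0.519, and Ccr9 (0.580, from 0.470 to 0.665) and Cxcr3 (0.534 ± 0.148) were the lowest and overlapped. The order in Van differed in the places of Ccr2 and Ccr9. Ccr2, at 87.2 ± 14.8 FPKM, came after Ccrl2 (110 ± 32.3) and Cx3cr1 (107 ± 13.7), although the ranges of neighbours in this order overlapped, and Ccr9 (0.315 ± 0.0373) came after Cxcr3 (0.439 ± 0.170), again with overlap.

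Over these 25 receptors, the FPKM summed to 819, 920 and 872 in the Con mice and to 873, 723 and 686 in the Van mice, in the order of their replicate numbers, which is kept below. The 9 receptors made up between 96.4% and 97.7% of this sum in every library. The share of Ccr2 was 21.2%, 17.7% and 18.2% in the Con mice and 8.06%, 12.9% and 14.3% in the Van mice, so that every Van mouse was below every Con mouse. The share of Cx3cr1 was 14.2%, 13.6% and 13.6% in Con and 12.9%, 16.2% and 13.3% in Van, and the groups overlapped.

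Ccr2 (ENSMUSG00000049103, GRCm38 chromosome 9, 124101950 to 124113557, plus strand) had 757, 757 and 680 CPM in the Con mice. It had 316, 444 and 473 CPM in the Van mice. All Van mice were below all Con mice, and Van replicate 1 was the lowest. The mean was 731 ± 44.8 CPM (SD, n = 3) in Con and 411 ± 83.7 in Van. The log2 fold change was -0.83 with a standard error of 0.14, and edgeR's adjusted p was 0.0283. An exact two-sided permutation test of the CPM gave p = 0.10, the smallest that 3 mice against 3 allow. The call did not hold in all fits with a library left out. Over all genes, the calls fell from 322 to between 21 and 136 in these fits. With single libraries left out, the log2 fold change was between -0.95 and -0.67, and edgeR's adjusted p was 0.0722, 0.0904 and 0.0991 when Con replicate 1, 2 or 3 was missing. It was 0.0113, 0.0983 and 0.0436 when Van replicate 1, 2 or 3 was missing. With all mice, DESeq2, which called 979 of 23572 genes, also called Ccr2 (adjusted p = 1.3e-08), while limma on log2(FPKM + 1) values did not (-0.96, adjusted p = 0.0969). In bulk RNA, fewer cells carrying a receptor and less receptor mRNA per cell cannot be told apart.

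Cx3cr1 (ENSMUSG00000052336, chromosome 9, 119901616 to 120069879, minus strand) had 521, 559 and 517 CPM in the Con mice and 501, 508 and 407 CPM in the Van mice. The groups did not overlap in CPM, by a narrow gap, but did overlap in FPKM, at 116, 125 and 118 in Con and 113, 117 and 91.5 in Van. The mean was 532 ± 23.3 CPM (SD, n = 3) in Con and 472 ± 56.3 in Van, and the log2 fold change of -0.17 (standard error 0.09) did not pass edgeR's test (adjusted p = 0.372). The exact permutation p was 0.10, again the smallest possible. With single libraries left out, the log2 fold change of Cx3cr1 ranged from -0.23 to -0.08, the latter without Van replicate 3.

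The ratio of Ccr2 to Cx3cr1 compares, within a library, the receptor that is high on Ly6C high monocytes with the one that is high on Ly6C low monocytes. It was 1.49, 1.31 and 1.34 FPKM per FPKM in the Con mice, so that Ccr2 exceeded Cx3cr1 in each Con mouse. In the Van mice it was 0.625, 0.794 and 1.07, so that Ccr2 was below Cx3cr1 in 2 of the 3 Van mice and slightly above it in the third. On the log2 scale, with a pseudocount of 0.1 FPKM, the mean was 0.46 ± 0.10 (SD, n = 3) in Con and -0.30 ± 0.39 in Van, a difference of -0.77. The groups did not overlap, and the exact two-sided permutation test gave p = 0.10, the smallest that 3 against 3 allow.

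**Figure D2:**
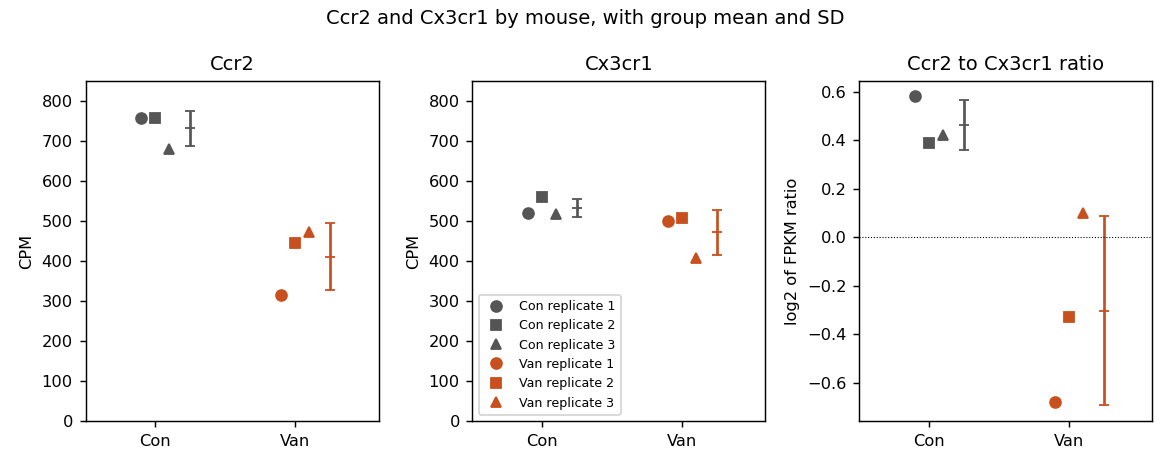
Ccr2 and Cx3cr1 in CPM, and the log2 ratio of their FPKM, in each mouse, with group mean and SD beside the points. The Van mice lie at 316 to 473 CPM of Ccr2 against 680 to 757 in Con, while for Cx3cr1 they lie at 407 to 508 against 517 to 559, and the ratio is negative in 2 of 3 Van mice.

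Other monocyte genes did not all move with Ccr2. The summed FPKM of the 8 Ly6C high markers was 1521, 1555 and 1319 in Con and 1277, 1437 and 1954 in Van. That of the 10 Ly6C low markers was 3100, 2930 and 3366 in Con and 3932, 3284 and 2916 in Van. Both sums overlapped between the groups. Within each group, the mouse with the least Ccr2 had the lowest Ly6C high and the highest Ly6C low sum. Whether these go together was not tested. Ly6c2, which encodes the Ly6C antigen, had a log2 fold change of -0.34 (edgeR adjusted p = 0.240), and Chil3, a secreted protein of Ly6C high cells, 0.56 (adjusted p = 0.496). Vcan (versican) was the only one of the 8 Ly6C high markers called, by edgeR and by DESeq2, against 2.00% of all genes with edgeR. It was higher in Van, by 1.54 on the log2 scale (edgeR adjusted p = 0.0309), opposite in sign to Ccr2. An unadjusted p under 0.05 was reached by 2 of the 8, against 16.5% of all genes. These were Vcan and, in the other direction, Ly6c2. Of the Ly6C low markers, Nr4a1, a transcription factor these cells depend on, had 0.11 and Ace 0.19, and 0 of the 10 were called by edgeR (4 had an unadjusted p under 0.05, against 16.5% of all genes). DESeq2 called 2 in opposite directions, Eno3 (-0.46 in edgeR) and Fcgr4 (0.41). Vcan, Eno3 and Fcgr4 were named after their values were seen.

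Ccrl2 and Cmklr1 bind chemerin, the product of Rarres2. CMKLR1 signals and directs migration, whereas CCRL2 is an atypical receptor that binds chemerin without signalling through G proteins. Ccrl2 (ENSMUSG00000043953, chromosome 9, 111054486 to 111057519) had 285, 309 and 265 CPM in Con and 352, 211 and 217 CPM in Van. Van replicate 1 was above and the other Van mice were below every Con mouse, and the log2 fold change was -0.14 (standard error 0.18, edgeR adjusted p = 0.778). Without Van replicate 1 it was -0.42, with an adjusted p of 0.0602 from edgeR. It was -0.01 without Van replicate 2 and -0.02 without Van replicate 3 (edgeR adjusted p = 0.995 and 0.974). Cmklr1 (ENSMUSG00000042190, chromosome 5, 113612354 to 113650426) had 45.4, 39.5 and 48.3 CPM in Con and 44.4, 52.3 and 42.3 CPM in Van. The groups overlapped, with a log2 fold change of 0.06 (standard error 0.10, edgeR adjusted p = 0.838).

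Cxcr4 (ENSMUSG00000045382, chromosome 1, 128588199 to 128592293) had 752, 953 and 864 CPM in Con and 1028, 744 and 738 CPM in Van. As for Ccrl2, Van replicate 1 was the highest of all libraries and the other Van mice were the lowest. The log2 fold change was -0.03 (standard error 0.14, edgeR adjusted p = 0.942), and it was 0.05 without Con replicate 2, without Van replicate 2 or without Van replicate 3. Over the 6 libraries, Ccrl2 and Cxcr4 had the highest Pearson correlation of log2 CPM among the members (0.86), while that of Ccr2 and Cx3cr1 was 0.43. These are descriptions over libraries of 2 groups. Van replicate 1 was the highest or lowest library for 5 of the 9 receptors, being lowest for Ccr2, Ccr1 and Cxcr3.

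Ccr1, a receptor of CCL3, CCL5 and other inflammatory chemokines, was more variable in Van. Ccr1 (ENSMUSG00000025804, chromosome 9, 123962124 to 123968692) had 8.68, 12.2 and 10.4 CPM in Con and 6.57, 12.4 and 20.3 CPM in Van. The Van mice included both the lowest and the highest library, and the log2 fold change was 0.33 (standard error 0.34, edgeR adjusted p = 0.711). Without Van replicate 3 it was -0.14. The coding sequence of Ccr1 holds a run identical to one in Ccr3, which is shown because it is the longest that Ccr1 shares with the receptors compared. In the GENCODE M21 annotation of GRCm38 it lies at chr9:123963611-123963657 on the minus strand.
Ccr1: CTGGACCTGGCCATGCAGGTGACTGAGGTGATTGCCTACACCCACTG
The run of 47 bases is shorter than the 100-base reads the study states. Receptors of this family resemble each other in sequence, and how the authors treated reads that align to more than 1 place is not given in the sources used here, so that reads may be shared between similar receptors, Ccr2 included.

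Ccr7 guides dendritic cells and naive T cells to lymphoid tissue through CCL19 and CCL21. Ccr7 (ENSMUSG00000037944, chromosome 11, 99144196 to 99155077) had 46.3, 27.6 and 39.0 CPM in Con and 43.2, 24.7 and 33.6 CPM in Van. The groups overlapped, with a log2 fold change of -0.15 (standard error 0.22, edgeR adjusted p = 0.813). Leaving out Con replicate 1 gave 0.02, and leaving out Van replicate 2 gave 0.03. The 7 markers of CCR7+ mature dendritic cells summed to 58.2 to 85.4 FPKM in Con and 51.6 to 73.1 FPKM in Van. Of these, Fscn1 (fascin, an actin bundling protein) had 34.1 and 30.6 FPKM and Il4i1 16.4 and 13.8 FPKM. All 6 tested had a negative log2 fold change, and none was called by edgeR or DESeq2 (2 had an unadjusted p under 0.05, against 16.5% of all genes). The part of these cells in the Ccr7 values was not tested.

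Ccr9, the receptor of CCL25, is found on plasmacytoid dendritic cells and on lymphocytes that home to the small intestine. Ccr9 (ENSMUSG00000029530, chromosome 9, 123678439 to 123784330) had 2.31, 2.02 and 2.61 CPM in Con and 1.49, 1.76 and 1.21 CPM in Van. The groups did not overlap in CPM or in FPKM. The log2 fold change was -0.64 (standard error 0.23) with an unadjusted p of 0.0231 and an adjusted p of 0.218 from edgeR, so that it did not pass the test. The counts behind it were low, at 68 to 121 per library. Its exons overlap those of the genes AC165425.1, Gm17200 and Slc6a20a, so reads may be shared. Of the 10 plasmacytoid dendritic cell markers, 7 had a negative log2 fold change and 1, Upb1, was called by edgeR (-1.17, adjusted p = 0.0227), against 2.00% of all genes. An unadjusted p under 0.05 was reached by 3 of the 10, against 16.5%, and the CPM of the groups did not overlap for 5, against 22.5%. DESeq2 called Upb1 and Siglech, a lectin of these cells, which had -0.88 in edgeR (adjusted p = 0.113) and did not overlap between the groups in CPM. Their summed FPKM, over all 10, was 81.8 to 91.7 in Con and at least 87.2 in Van. Bst2, which is not restricted to these cells, made up most of that sum, with 60.1 and 63.3 FPKM. The bead selection removes cells bearing CD45R, which plasmacytoid dendritic cells carry, and the part of remaining ones in the Ccr9 values was not tested.

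Cxcr3, the receptor of CXCL9 and CXCL10, is known from T cells and NK cells. Cxcr3 (ENSMUSG00000050232, chromosome X, 101731535 to 101734269) had 1.45, 1.07 and 0.809 CPM in Con and 0.605, 0.824 and 1.29 CPM in Van, from 35 to 75 counts per library. The groups overlapped, and the log2 fold change was -0.29 (standard error 0.37, edgeR adjusted p = 0.775). With single libraries left out it ranged from -0.64 to -0.06. The 9 T cell markers summed to 12.6 to 16.4 FPKM in Con and 9.47 to 13.5 in Van, and the 7 NK cell markers to 4.11 to 6.60 and 3.48 to 4.86. Cd4 made up most of the T cell sum, with a mean of 9.88 FPKM in Con and 8.09 in Van. Klrd1 made up most of the NK cell sum, with 4.80 and 3.63 FPKM. None of the 7 T cell and 4 NK cell markers tested was called by edgeR or DESeq2 (1 and 0 had an unadjusted p under 0.05, against 16.5% of all genes). The bead selection removes cells bearing CD3e or NK1.1, and the part of remaining T and NK cells in the Cxcr3 values was not tested.

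**Figure D3:**
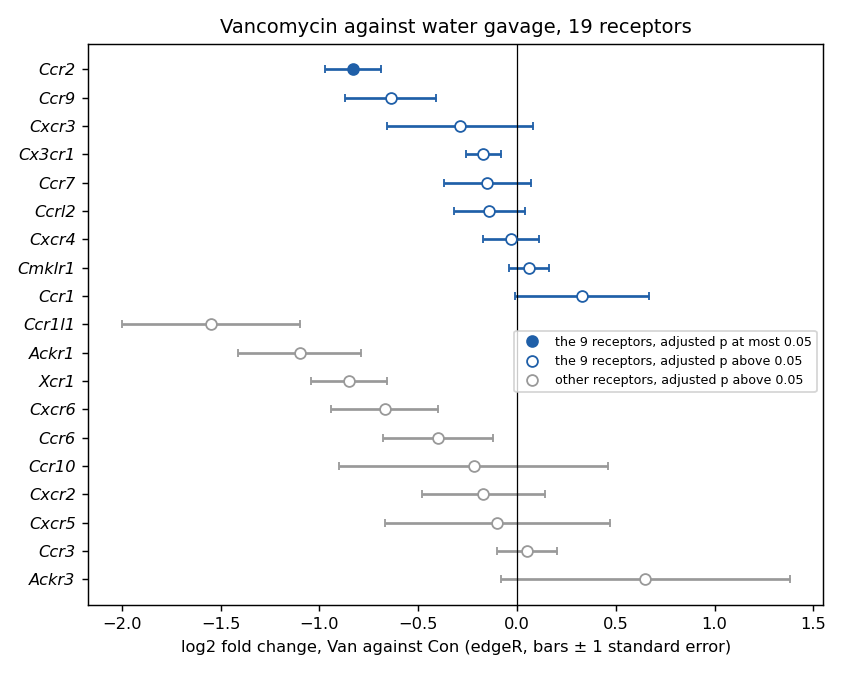
Log2 fold change of Van against Con with its standard error for the 9 receptors (blue) and the 10 other receptors tested (grey), a filled point marking an adjusted p of at most 0.05. Ccr2, at -0.83, is the only filled point, and 8 of the 10 other receptors lie below 0 without passing the test.

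Of the 16 other receptors of the family, 10 passed the filter. The remaining 6 (Ccr4, Ccr8, Cxcr1, Ackr2, Ackr4 and Gpr1) had at most 14 counts in any library. None of the 10 was called by edgeR (4 had an unadjusted p under 0.05, against 16.5% of all genes), DESeq2 called 1 (Xcr1) and limma 0. The log2 fold change was negative for 8 and positive for 2, with a median of -0.31, and the CPM of the groups did not overlap for 4, against 22.5% of all genes. Xcr1, which marks cross-presenting dendritic cells, had 0.532, 0.652 and 0.672 FPKM in Con and 0.362, 0.307 and 0.368 in Van. Its log2 fold change was -0.85 (standard error 0.19, edgeR adjusted p = 0.0667). Clec9a, a marker of the same dendritic cells, was the only one of the 9 conventional dendritic cell markers called by edgeR, at -1.12 (adjusted p = 0.0131), against 2.00% of all genes. DESeq2 called Clec9a and Batf3, a transcription factor of the same cells, which had -0.40 in edgeR (adjusted p = 0.0875). Over the list, 7 log2 fold changes were negative and 2 positive, those of Flt3 (0.25) and Cadm1 (0.07), and 3 of 9 had an unadjusted p under 0.05, against 16.5% of all genes. The summed FPKM of the 9 markers was 169 to 187 in Con and 151 to 174 in Van. The part of these cells in the Xcr1 values was not tested. Clec9a, Batf3, Flt3, Cadm1, Upb1 and Siglech were named after their values were seen. Ackr1, an atypical receptor known from erythroid and endothelial cells, had 0.869, 0.765 and 0.844 FPKM in Con and 0.446, 0.300 and 0.383 in Van, with a log2 fold change of -1.10 (standard error 0.31, edgeR adjusted p = 0.115). Its exons overlap those of Cadm3 on the same strand by 284 bases, and reads of the 2 genes may be mixed. Ccr3, the eotaxin receptor known from eosinophils, had 59.4, 75.5 and 86.0 CPM in Con and 68.9, 90.4 and 69.4 CPM in Van, and the groups overlapped.

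Several of these receptors lie close together. Of the 9 members, 5 are on chromosome 9, and 7 of the 25 receptors lie within 500 kb of Ccr2, all of which were tested. The log2 fold change was negative for 5 of the 7, and Ccr2 was the only one called. By distance from Ccr2, the values were -0.64 for Ccr9 (376 kb), -0.67 for Cxcr6 (299 kb), -0.85 for Xcr1 (251 kb), 0.33 for Ccr1 (142 kb), -1.55 for Ccr1l1 (130 kb) and 0.05 for Ccr3 (81 kb). The 2 positive values, of Ccr1 and Ccr3, were within 1 standard error of 0 (0.34 and 0.15). Ccr1l1 and Cxcr6, which were named for their position after their values were seen, had adjusted p of 0.125 and 0.271, and Ccr1l1 had as few as 8 counts in a library.

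**Figure D4:**
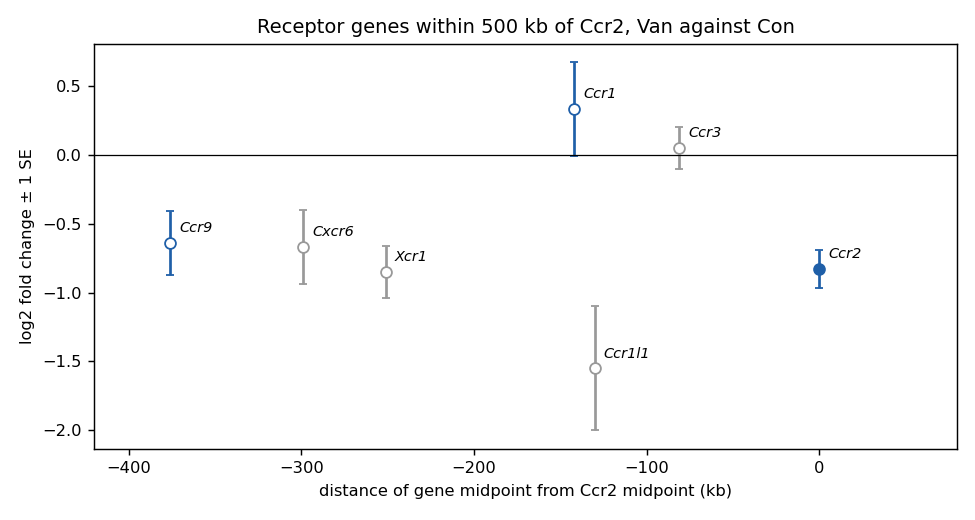
Log2 fold change of Van against Con with its standard error for the 7 receptors within 500 kb of Ccr2, placed by the distance of the gene midpoint from that of Ccr2 in kb (members in blue, others in grey, filled where the adjusted p is at most 0.05). Ccr1 and Ccr3, between lower neighbours, lie above 0.

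Of 18 ligands of the 9 receptors, 16 passed the filter, 11 with a negative and 5 with a positive log2 fold change (median -0.23). By edgeR 1 was called, against 2.00% of all genes, and 3 had an unadjusted p under 0.05, a share near the 16.5% of all genes. Ccl12, a CCR2 ligand of the mouse, had 17, 15 and 18 counts in the Con mice and 0 counts in each Van library. The edgeR test gave an adjusted p of 0.0337. Set against a floor of 3 counts per Van library, the Con mean was 5.63-fold higher, without allowance for the error of the Con counts. Counts are covered bases divided by 75, so fewer fragments than counts lie behind these values. In the fits with a single library left out, 0 ligands were called, and DESeq2 called 0. An unadjusted p under 0.05 was also seen for Ccl5, a ligand of CCR1 (110 FPKM in Con, 81.8 in Van, log2 fold change -0.44, adjusted p = 0.242), and Cxcl9, a CXCR3 ligand (9.85 and 6.17 FPKM, -0.69, adjusted p = 0.298). Both were named after their values were seen.

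Of 30 G proteins and effectors that act below the receptors, all were tested, 17 with a negative and 13 with a positive log2 fold change (median -0.03). An unadjusted p under 0.05 in edgeR was reached by 9 of the 30, against 16.5% of all genes. The CPM of the groups did not overlap for 11, against 22.5%. By edgeR 2 were called, against 2.00% of all genes. DESeq2 called 3, adding Ptk2b, a tyrosine kinase of leukocyte migration, which had a log2 fold change of -0.35 in edgeR (adjusted p = 0.0858) and was named after its value was seen. Pik3r5, which encodes p101, the regulatory subunit through which G protein βγ subunits activate PI3K gamma, rose. It had 41.9, 43.2 and 40.8 FPKM in Con and 73.3, 68.5 and 72.9 FPKM in Van, and the groups did not overlap. Its log2 fold change was 0.74 (standard error 0.06, edgeR adjusted p = 0.0016). Dock2, the exchange factor that activates Rac during leukocyte migration, fell, from 96.8, 89.5 and 99.5 FPKM in Con to 81.2, 78.1 and 78.0 FPKM in Van. Its log2 fold change was -0.28 (standard error 0.06, edgeR adjusted p = 0.0470). Pik3r5 was called with each library left out, whereas Dock2 was not called with any library left out and Ptk2b was called without Van replicate 1. The exons of Dock2 overlap those of 4930403D09Rik on the opposite strand, which had a mean of 0.0250 FPKM.

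Receptor desensitization proceeds through kinases of the GRK family, arrestins and RGS proteins, which end G protein signalling. Of 20 such genes 19 were tested, 10 with a positive and 9 with a negative log2 fold change (median 0.02). None was called by edgeR, DESeq2 or limma, and 0 had an unadjusted p under 0.05, against 16.5% of all genes. The 2 with the smallest p were Adrbk1, which encodes the kinase GRK2, and Rgs2. Adrbk1 had a mean of 690 ± 8.01 CPM (SD, n = 3) in Con and 743 ± 21.9 in Van, and Rgs2 590 ± 28.4 and 639 ± 39.7, each with a log2 fold change of 0.11 (edgeR adjusted p = 0.332 and 0.429).

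Markers of other cells differed between the groups beside these results. The erythroid markers summed to 58.7 to 117 FPKM in Con and 191 to 433 FPKM in Van, and 3 of the 7 tested were called higher by edgeR, against 2.00% of all genes called in either direction (4 by DESeq2), with log2 fold changes of 1.76 for Hba-a1, 1.87 for Hbb-bs and 2.08 for Alas2. The red pulp macrophage markers, led by C1qa and C1qc, summed to 1105 to 1385 and 1361 to 1767 FPKM, with 9 of 10 log2 fold changes positive and 0 called by edgeR (6 had an unadjusted p under 0.05, against 16.5% of all genes). DESeq2 called 3, C1qb and Vcam1 higher and Siglec1 lower. The B cell markers, led by Cd79b and Cd22, summed to 16.7 to 17.9 and 13.8 to 15.7 FPKM, with all 8 tested negative in log2 fold change. The plasma cell markers, led by Jchain and Prdm1, summed to at least 49.5 FPKM in Con and 40.8 to 49.1 FPKM in Van, with 4 of 5 tested negative. The neutrophil markers, led by Csf3r, which monocytes also express, summed to 109 to 113 and 113 to 140 FPKM. Ly6g was at 0 in all 6 libraries, and of the 7 neutrophil markers tested, 5 had a negative log2 fold change (median -1.10), while Csf3r (0.22) and Mmp8 (0.50), the most abundant, were positive. None of the B cell, plasma cell and neutrophil markers tested was called by edgeR (1, 2 and 2 had an unadjusted p under 0.05, against 16.5% of all genes), and DESeq2 called 0, 1 and 1. The monocyte markers summed to 10406 to 10926 and 9238 to 10955 FPKM, with 4 of 8 log2 fold changes negative and 1, Fcgr1, called by edgeR (-0.32, adjusted p = 0.0328), against 2.00% of all genes. DESeq2 called 3, Fcgr1 and Itgam lower and Cd14 higher. Genes of this paragraph other than Hba-a1, Hbb-bs and those that lead a list were named after their values were seen. The part of the other cells in the Ccr2 values was not tested.

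**Figure D5:**
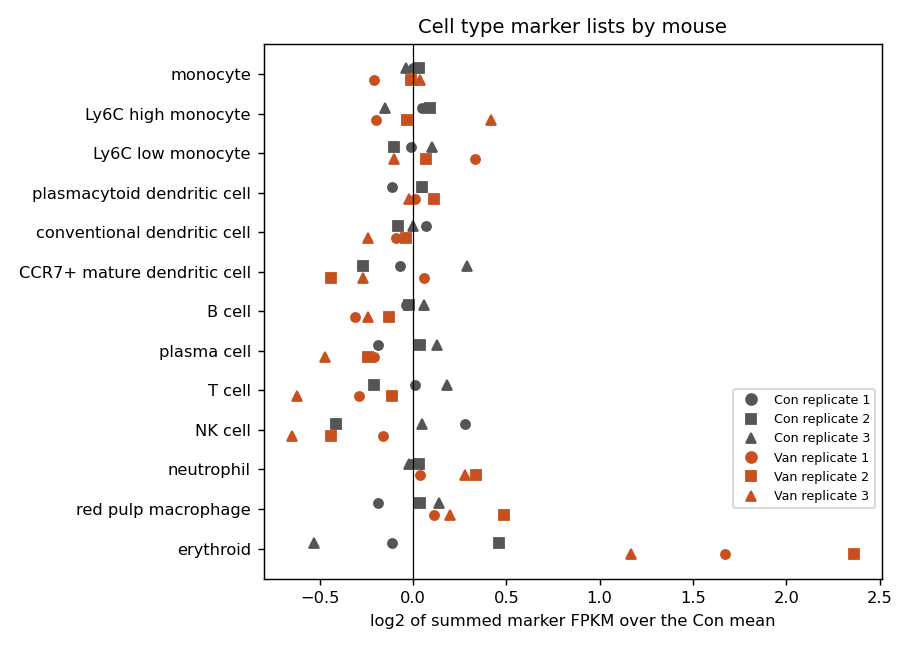
Summed FPKM of each cell type marker list in each mouse, as the log2 of its ratio to the mean of the Con mice, with Con in grey and Van in orange. The erythroid list is the one in which Van mice lie farthest to the right of Con, at 191 to 433 FPKM against 58.7 to 117, while the Ly6C high and Ly6C low monocyte lists overlap.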

How the data were processed

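The authors aligned the reads of 3 Con and 3 Van libraries to GRCm38 with HISAT2 2.2.1, used SAMtools 1.9, estimated FPKM with StringTie 2.1.3 and Ballgown, and converted these to gene counts with tximport. The estimated counts deposited by the authors are not scaled to library size. They take the form of covered bases divided by 75, so fragments are fewer than counts. The annotation release and strand setting are not given in the sources used here. The VanLip group was not analysed here, and 0 columns of other samples were present. The study points to a different deposit for its data, so libraries were assigned to its groups by their treatment.

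Counts were rounded and tested in R 4.3.3 with edgeR 4.0.16 (TMM, expression filter at a minimum count of 10, quasi-likelihood test, group as the only term), with Benjamini-Hochberg adjustment over all 16138 identifiers tested and calls at an adjusted p of at most 0.05. Permutation tests were exact and two-sided. The sources name DESeq2 1.38.3 for the authors' own test, and DESeq2 1.42.0 and limma 3.58.1 (on quantile-normalized log2 FPKM with a pseudocount of 1 or 0.1) were alternatives. Other alternatives changed the size factors, the filter, the count scale or the identifiers, added a replicate block or left out a library. Coordinates are from GENCODE M21, copies were sought with blastn 2.17.0, and the count tests were tested on simulated data.

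Members and lists were chosen with earlier results of these data known. The genes named are the 9 members, called genes of the pathway lists (or the 2 with the smallest p where none was called), other receptors with a mean of at least 1 FPKM, the 2 most abundant markers of a list, and, for each member, the 3 genes of at least 10 CPM whose log2 CPM correlated best with it. Exceptions are named as such. Some genes that the rule names are not reported here. P-values measure the spread between these mice.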

Additional observations from a re-analysis of the deposited data

How the results depend on the processing

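The fold changes of Ccr2, Cx3cr1, Ccr9, Ccrl2 and Cxcr3 kept their sign in all 16 alternatives, but not their size. With single libraries left out, Cx3cr1 ranged from -0.23 to -0.08, Ccr9 from -0.78 to -0.51, Ccrl2 from -0.42 to -0.01 and Cxcr3 from -0.64 to -0.06. Ccr9 was -0.25 with limma on log2(FPKM + 1). Ccr2 was -0.85 with the replicate number as a block (adjusted p = 0.0549), and -0.96 and -0.97 with limma on log2(FPKM + 1) and log2(FPKM + 0.1) (adjusted p = 0.0969 and 0.208), so that 0 of the 9 receptors were called under these, and DESeq2 gave an adjusted p of 1.3e-08. The cause was not tested. With single libraries left out, Ccr2 ranged from -0.95 to -0.67 and 0 to 1 of the 9 were called. Ccr1 ranged from -0.14 to 0.65, Ccr7 from -0.37 to 0.03, Cxcr4 from -0.21 to 0.05 and Cmklr1 from -0.03 to 0.13, changing sign. DESeq2 called 1 other receptor. The called ligands numbered 0 with DESeq2, at least 10 counts in every library (which removes Ccl12), the block, both limma fits and the fragment scale, and 0 to 0 with libraries left out. The called effectors numbered 1 with the block and with limma on log2(FPKM + 1), 0 with log2(FPKM + 0.1), and 1 to 2 with libraries left out. Over all genes the calls numbered 322, against 979 with DESeq2, 110 with the block, 24 and 0 with limma and 21 to 136 with libraries left out.

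Libraries that share a replicate number did not deviate together (correlations 0.025, -0.002 and -0.073). Whether they share more than that number cannot be told from these values. The log2 ratio of Ccr2 to Cx3cr1 differed by -0.97 to -0.58 with libraries left out and by -0.77 to -0.67 in the other alternatives. A paired exact test over 3 pairs cannot go below p = 0.25. Low counts limit the precision for Ccr9, Cxcr3 and Ccl12.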

Other observations

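For each receptor, the genes of at least 10 CPM whose levels followed it most closely over the 6 libraries were sought among 8409 gene symbols. Over so few libraries, which share a treatment contrast, high correlations arise for many genes, so the values are a description. Ccr2 was followed by Mndal, an interferon-inducible gene of the p200 family (Pearson r = 0.991), Acat1, a mitochondrial thiolase (0.988), and Ptpn7, a leukocyte phosphatase (0.987). Mndal was itself called lower in Van, with a log2 fold change of -0.40 (edgeR adjusted p = 0.0295), while Acat1 (-0.31) and Ptpn7 (-0.50) did not pass the test (adjusted p = 0.0880 and 0.0626). Cx3cr1 was followed by Thada (0.989), Spata5 (0.986) and Cdkn2d (0.977), none of which was called.

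For the other receptors, none of the genes named here was called. The closest were Usf1 and Vps33b to Ccr1 (r = 0.992 and 0.987), Fcf1, Wdr37 and Arrdc1 to Ccr7 (0.997 to 0.977), 2610507B11Rik, Trp53i11 and Ly9 to Ccr9 (0.991 to 0.984), and Mob1b, 4833407H14Rik and Mcm9 to Ccrl2 (0.978 to 0.972). Gm15710, Tmem173 and Clp1 were closest to Cxcr3 (0.999 to 0.989), Gtdc1, G0s2 and Dnah2 to Cxcr4 (0.993 to 0.975), and Syf2, Smyd5 and Brd2 to Cmklr1 (0.986 to 0.982). Gm15710, at r = 0.999, was set beside a receptor with at most 75 counts per library. Among pairs of members, Ccr1 and Ccrl2 had the most negative correlation (-0.78), Cx3cr1 and Ccr9 had 0.76 and Ccr2 and Ccr9 0.73.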
